A study of Mus musculus with 30 samples.

Results

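This report describes how gene expression in mouse primordial germ cells differed between the embryonic stages E13.5 and E11.5 (days after mating) in the same direction in female and in male embryos. The comparison used 12 of the 30 arrays of the series, which are all the control arrays of these stages: 3 from E13.5 females, 3 from E13.5 males, 3 from E11.5 females and 3 from E11.5 males. Each array gave 1 signal per probe set on a log2 scale, so a difference of 1 on this scale doubles the signal. A gene was called for stage when the E13.5 minus E11.5 term, adjusted for the sex of the embryo, had an adjusted p under 0.05. It was called shared when the female and the male change on their own also passed 0.05 with the same sign.

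Primordial germ cells are the embryonic precursors of eggs and sperm. They migrate into the genital ridges, which become ovary or testis, and on arrival switch on a set of germ cell genes that migrating cells keep low. Female germ cells then enter meiosis and male germ cells stop dividing and begin the spermatogenic programme, and over the same days both sexes lose the pluripotency network and most of their DNA methylation.

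All 4 groups had the genotype Ring1+;Rnf2+, on a background labelled as mixed129/Sv and C57BL6J, and all embryos carried the Oct4(deltaPE)-GFP transgene, a reporter driven by a germ cell element of the Pou5f1 gene. Gonads were made into single cells with trypsin, GFP-positive cells were sorted, and each array received RNA from 500 sorted cells, copied by a PCR-based whole-transcriptome amplification before hybridization to Affymetrix arrays. The cells of a group are thus those in which the reporter was active, and a change within them cannot be told apart from a change in which cells the reporter marked. The remaining 18 arrays of the series were E12.5 controls (6 arrays, used here as a stage between) and Ring1+;Rnf2delta germ cells (12 arrays), which entered only 1 alternative fit. Whether replicate arrays stem from different embryos, litters or pools is not stated in the labels, so the p-values measure only how far these samples scatter, and that scatter may be technical. In sorted bulk samples, fewer cells that express a gene and less RNA per cell cannot be told apart.

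The sorted samples carried the germ cell label in their genes. All 14 primordial germ cell markers measured exceeded the 40th percentile of their array on at least 3 arrays of each stage. That percentile lay between 2.32 and 2.43. The mean marker signal was 7.01 to 7.32 on the E13.5 arrays and 6.99 to 7.24 on the E11.5 arrays. Passing it on 3 arrays was not particular to germ cell markers. Of 19 supporting cell markers 17 did so at E13.5 and 14 at E11.5, and of 13 interstitial and mesenchymal markers 8 did at each stage. The counts at E13.5 and E11.5 were 2 and 5 of 11 endothelial and 5 and 6 of 11 macrophage markers. They were 2 and 2 of 7 erythroid and 0 and 1 of 5 steroidogenic markers. The mean signal of supporting cell and of interstitial and mesenchymal markers exceeded the 40th percentile on every array of both stages. That of steroidogenic markers lay below it. Those of endothelial, erythroid and macrophage markers ranged from below it to near or above it. For 19 supporting cell markers the mean signal ranged over 2.44 to 2.83 at E13.5 and 2.49 to 2.83 at E11.5, and for 13 interstitial and mesenchymal markers over 2.64 to 2.77 and 2.72 to 2.88 in the same order. For 5 steroidogenic markers it ranged over 1.81 to 1.96 at E13.5 and 1.86 to 2.14 at E11.5, and Cyp11a1, Cyp17a1 and Hsd3b1 never exceeded the percentile. The mean of 11 endothelial markers was 2.16 to 2.37 at E13.5 and 2.38 to 2.50 at E11.5, that of 7 erythroid markers 2.01 to 2.24 and 2.16 to 2.42, and that of 11 macrophage markers 2.10 to 2.26 and 2.24 to 2.64. Of 11 endothelial markers 4 (Kdr, Flt1, Emcn and Sox17) never exceeded the percentile, and 7 did on at least 3 of the 12 arrays. Of 11 macrophage markers 4 (Adgre1, Itgam, Ptprc and Lyz2) never exceeded it, and 6 did on at least 3 of the 12 arrays. Of those tested, 5 of 7 endothelial, 2 of 4 erythroid and 2 of 6 macrophage markers were lower at E13.5 by the stage term. Over all tested genes the share lower was 16.6%. The interstitial markers Vim and Ptch1 changed by -0.97 and 0.45 (adjusted p = 0.0019 and 0.0034), and the supporting cell marker Bmp2 by 0.47 (adjusted p = 0.023, lost in 5 of 20 alternatives). In males 2 supporting cell markers were higher, Cst9 and Amh. The part of such cells in the genes that differed between the stages was not tested. Sex labels were matched by Uba1y, a Y-linked gene, which read 8.35, 8.47 and 8.47 in E13.5 males and 3.17, 2.96 and 2.54 in E13.5 females.

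Stage was the main axis of variation. The first principal component held 46.2% of the variance over 13065 genes and placed E13.5 females at 34.6 to 41.2, E13.5 males at 8.35 to 8.61 and all 6 E11.5 arrays at -25.5 to -20.9. The second held 21.8% and set E13.5 males, at -30.4 to -25.4, apart from all other arrays. Every array correlated with the others of its group at a mean r of 0.985 to 0.990, so no replicate stood apart. The spread of each array around the gene medians (interquartile range) was 0.260 to 0.419, and the 3 E13.5 female arrays had the widest.

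**Figure D1:**
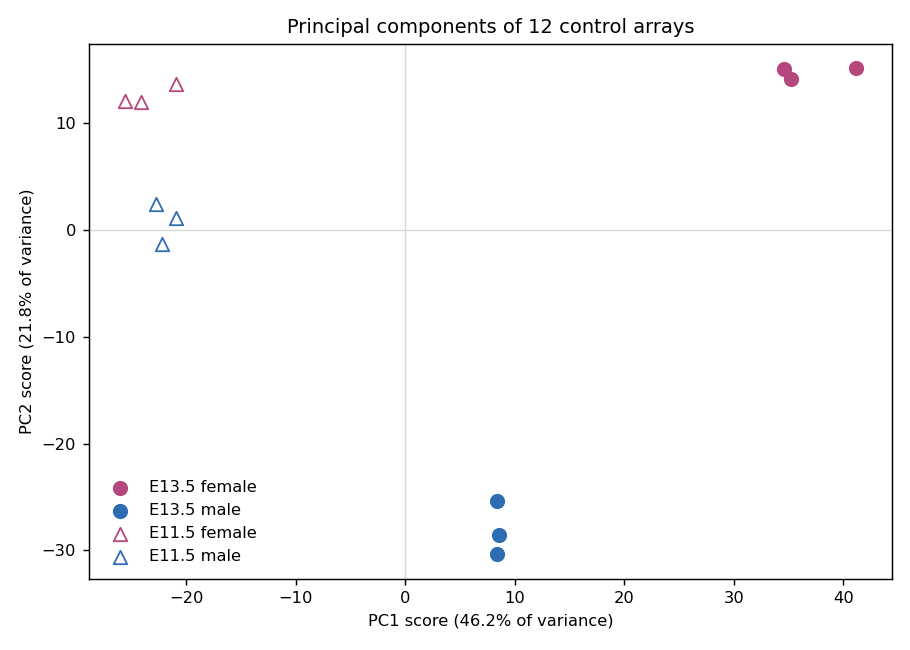
Scores of the 12 control arrays on the first (x axis, 46.2% of variance) and second (y axis, 21.8%) principal component of the log2 signals of 13065 genes. Filled circles are E13.5 arrays and open triangles E11.5 arrays, with females in magenta and males in blue. E13.5 arrays of both sexes sit right of all E11.5 arrays, with the females farther (34.6 to 41.2) than the males (8.35 to 8.61).

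Of 13065 genes tested, the stage term called 2269 higher at E13.5 (17.4% of genes) and 2170 lower (16.6%), or 34% in either direction. Stage-term counts given below for a list or kind of gene are to be read against these shares. In 964 genes (7.38%) all 6 E13.5 arrays lay above all 6 E11.5 arrays, and in 871 (6.67%) they lay below. Taken by sex, 2533 genes were higher (19.4%) and 2198 lower (16.8%) in E13.5 females than in E11.5 females. In males 1201 genes were higher (9.19%) and 1266 lower (9.69%).

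The genes that moved the same way in both sexes numbered 1516 (11.6%), with 725 higher (5.55%) and 791 lower (6.05%). The female and the male contrast have no array in common. Both take their spread from the same fit of 4 groups, so the calls are not independent of each other. The 725 shared risers made up 28.6% of the genes higher in females and 60.4% of those higher in males, and the 791 shared fallers made up 36.0% and 62.5% of the genes lower in each sex. Opposite calls were few, with 27 genes higher in females and lower in males and 31 the other way round. The arrays of the stages did not overlap in 1220 of the 1516 shared genes, against 1835 of all 13065 genes (14%). Shared genes were called on these same arrays, so this follows in large part from the call. In the fit of all 30 arrays, which takes its spread from all groups, the shared genes numbered 1005 (462 higher and 543 lower).

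Size differed between the sexes more often than direction. Among the shared risers the median change was 0.842 in females and 0.611 in males, and the female change was the larger in 511 of 725. Among the shared fallers the medians were -0.773 in females and -0.674 in males, and the female fall was the larger in 493 of 791. These medians describe genes that had to pass both tests. Over all 13065 genes the median change was 0.00684 in females and -0.0175 in males. The stage by sex interaction, which tests the difference between the female and the male change, passed in 1471 genes (11.3%). The female change lay above the male change in 833 of these (6.38%) and below it in 638 (4.88%), and 220 of the 1471 were shared genes (132 risers and 88 fallers). A change of at least 1 in each sex was seen in 61 shared risers and 87 shared fallers.

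**Figure D2:**
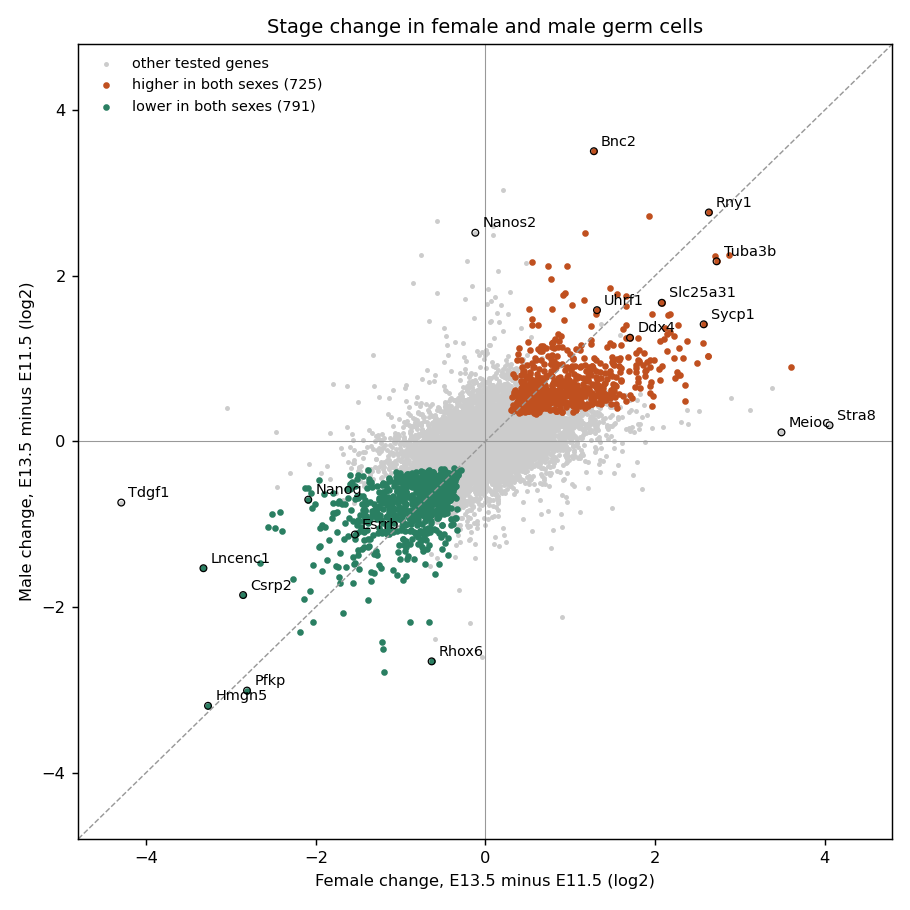
Change from E11.5 to E13.5 in females (x axis) and males (y axis), in log2 units, for each of 13065 genes. Orange points are the 725 genes higher in both sexes, green points the 791 lower in both, grey points all others, and the dashed line marks equal change. Slc25a31 and Pfkp lie close to the line, while Stra8 and Meioc lie far to the right at a male change near 0 and Tdgf1 far to the left.

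Of 21 tested genes on a list of germ cell identity after gonad colonization, 13 were higher at E13.5 and 3 lower, with a median stage change of 0.78 against -0.00437 over all genes. The median change was 1.16 in females and 0.23 in males, and the interaction passed in 7 of the 21. In each sex's own contrast 15 were higher in females and 10 in males, and 10 of the risers were shared. Taf7l, a germ cell transcription factor subunit, changed by 1.49 in females and 0.06 in males, and Brdt, a testis bromodomain protein, by 1.16 in females and -0.04 in males. A further list was that of germline genome defence and the piRNA pathway, which silences transposons. Of its 20 tested genes 14 were higher and 2 lower (Tdrd12 and Morc1). The median was 0.66 (0.63 in females and 0.46 in males), and 9 risers were shared. The lists hold Ddx4 in common.

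Slc25a31, which encodes a germline form of the mitochondrial ADP/ATP carrier, read 8.36, 8.76 and 8.26 in E13.5 females and 7.83, 7.94 and 8.14 in E13.5 males, against 6.14, 6.48 and 6.52 in E11.5 females and 6.59, 6.32 and 5.98 in E11.5 males. Every E13.5 array lay above every E11.5 array, a condition of the ranking that held Slc25a31, Ddx25, Sycp1 and Tdrd7. The stage change was 1.88 ± 0.13 (SE, adjusted p = 2.6e-07), with 2.08 in females (4.23-fold) and 1.67 in males (3.19-fold). Ddx25, a germ cell RNA helicase, read 4.72, 5.31 and 5.11 in E13.5 females and 4.62, 4.75 and 4.87 in E13.5 males, against 2.85, 3.33 and 3.07 in E11.5 females and 3.16, 3.25 and 3.22 in E11.5 males. Its stages did not overlap either, and its stage change was 1.75 ± 0.12 (adjusted p = 2.4e-07).

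Ddx4 (mouse vasa homologue), an RNA helicase of germ granules, read 7.96, 7.98 and 7.54 in E13.5 females and 7.95, 7.88 and 7.67 in E13.5 males, against 6.62, 5.34 and 6.41 in E11.5 females and 7.07, 6.48 and 6.18 in E11.5 males. The E13.5 values of the sexes intermingled, and all lay above the E11.5 values. Ddx4 rose by 1.48 ± 0.20 (adjusted p = 6.6e-05). Dazl, an RNA-binding protein that licenses germ cells for sexual differentiation, read 8.71 to 8.78 on all 6 E13.5 arrays, against 7.08, 6.37 and 7.51 in E11.5 females and 7.90, 7.57 and 8.04 in E11.5 males. The E13.5 arrays were nearly level and the E11.5 arrays spread widely below them. Its stage change was 1.33 ± 0.19 (adjusted p = 8.3e-05), with 1.77 in females and 0.89 in males, and the interaction missed the threshold (adjusted p = 0.064).

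Other members of the germ cell list rose with them. Stk31, a Tudor domain kinase of male germ cells, rose by 1.67 ± 0.15 (adjusted p = 2.3e-06) and read 5.45 to 6.25 at E13.5 against 3.84 to 4.67 at E11.5. Tex14, known for germ cell intercellular bridges, rose by 1.09 ± 0.10 (adjusted p = 1.7e-06), with 6.70 to 7.16 against 5.70 to 5.94. Tuba3a and Tuba3b encode closely alike testis alpha-tubulins, so their probe sets may read both. Tuba3b read 4.58 to 6.20 at E13.5 and 2.30 to 3.92 at E11.5 (change 2.45 ± 0.25, adjusted p = 5.5e-06), and Tuba3a rose by 1.75 (adjusted p = 4.8e-06). The helix-loop-helix factor Sohlh2 rose by 0.79 (adjusted p = 6.1e-05).

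Among genome defence genes, Tdrd7, a Tudor protein of germ granules, read 5.63, 5.84 and 5.60 in E13.5 females and 4.74, 4.70 and 4.77 in E13.5 males, against 3.40, 3.54 and 3.34 in E11.5 females and 3.18, 3.56 and 3.23 in E11.5 males. Its stages did not overlap, and its E13.5 females lay above its E13.5 males. The stage change was 1.84 ± 0.14 (adjusted p = 5.3e-07), and the female change of 2.27 exceeded the male change of 1.41 (interaction adjusted p = 0.0067, or 0.093 in the fit of all 30 arrays). Mael, a piRNA pathway protein, read 6.55, 6.66 and 6.72 in E13.5 females and 5.57, 6.16 and 5.71 in E13.5 males, against 4.58, 4.57 and 4.62 in E11.5 females and 4.85, 4.06 and 4.90 in E11.5 males. Both sexes were above all E11.5 arrays, for a change of 1.63 ± 0.18 (adjusted p = 9.2e-06). Hsf2bp, named here only because it was placed on the genome defence list, rose by 1.24 ± 0.12 (adjusted p = 4.2e-06). It read 5.19 to 6.06 at E13.5 against 4.08 to 4.37 at E11.5. Tdrd1, which binds Piwi proteins, stayed in a low range, with 3.20 to 3.57 at E13.5 against 2.37 to 2.74 at E11.5 (change 0.83 ± 0.10, adjusted p = 1.6e-05). Piwil4, a Piwi protein of fetal male germ cells, read 2.67 to 3.16 against 2.14 to 2.43, for a change of 0.50 in females and 0.57 in males (adjusted p = 0.0047 and 0.0046).

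**Figure D3:**
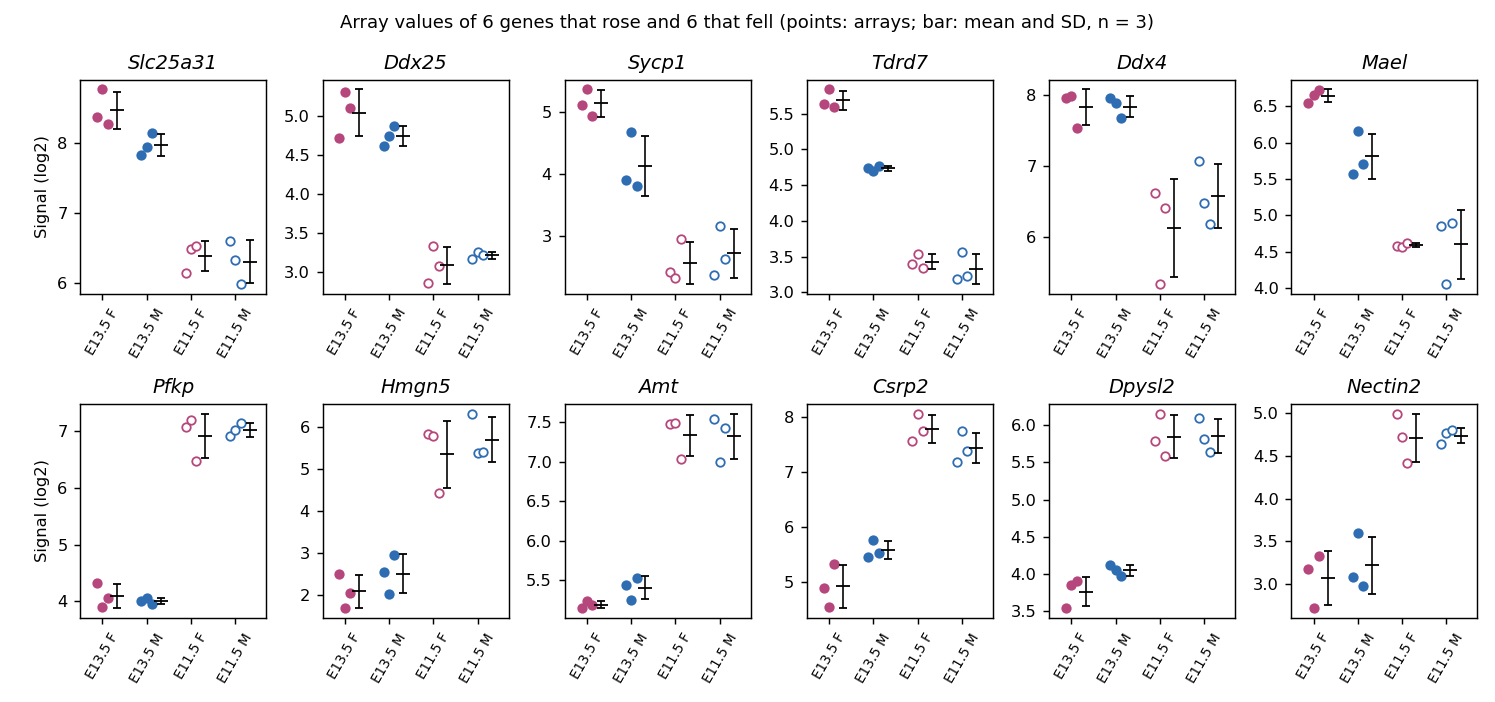
Log2 signal (y axis, a separate scale per panel) on each of the 12 arrays for 6 genes that rose (upper row) and 6 that fell (lower row), by group along the x axis (E13.5 females, E13.5 males, E11.5 females, E11.5 males). Points are arrays and the bar beside them is the mean with its SD (n = 3). In each of the 12 panels the 6 E13.5 arrays are separated from the 6 E11.5 arrays. All these genes except Ddx4 and Mael stood in a ranking that took only genes with this separation. For them the separation reflects, at least in part, how genes were chosen.

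The promoters of the shared risers on the germ cell, genome defence and meiotic lists are shown because these genes moved together. The sequences are RefSeq's for build GRCm38.p6 and run from 250 bases before to 50 bases after the gene start, given here as short windows read 5′ to 3′ on the gene's strand, with CACGTG or GCGGGA in capitals. The motifs searched on both strands were CACGTG (an E-box, its own reverse complement), GCGGGA (E2F-like) and GGGCGG (GC box), which overlaps GCGGGA where GGGCGGGA occurs and is left in lower case in the windows. The Slc25a31 window is chr3:40708738-40708823 on the plus strand, the Sycp1 window chr3:102936149-102936234 on the minus strand, the Stk31 window chr6:49395444-49395529 on the plus strand and the Tdrd1 window chr19:56826158-56826208 on the plus strand, and these 4 hold the E-box. The Ddx4 window is chr13:112652401-112652486 on the minus strand and holds the E2F-like motif, and the Hormad1 window, chr3:95559542-95559627 on the plus strand, holds both. Each window was cut around the first match, and the Ddx4 promoter held 1 CACGTG outside its window. The windows printed are from promoters with a match, while some others, such as those of Dazl and Tdrd7, had none before the gene start. Where a gene had several promoters (3 for Tdrd1, 2 for Stk31 and Hormad1) only the first listed was used.
Slc25a31: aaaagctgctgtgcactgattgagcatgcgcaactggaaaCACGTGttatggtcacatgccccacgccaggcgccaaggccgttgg
Sycp1: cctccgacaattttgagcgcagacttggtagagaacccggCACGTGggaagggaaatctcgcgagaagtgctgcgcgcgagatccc
Stk31: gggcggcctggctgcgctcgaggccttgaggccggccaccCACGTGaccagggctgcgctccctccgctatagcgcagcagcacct
Tdrd1: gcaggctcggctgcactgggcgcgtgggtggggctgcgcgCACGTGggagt
Ddx4: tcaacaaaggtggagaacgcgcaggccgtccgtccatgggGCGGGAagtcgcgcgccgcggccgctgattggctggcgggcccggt
Hormad1: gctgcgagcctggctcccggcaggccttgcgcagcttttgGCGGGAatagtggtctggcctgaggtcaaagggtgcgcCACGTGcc

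Of the 29 shared risers on these 3 lists, 25 had a promoter in the table, and CACGTG occurred in 12 of them (48%), GCGGGA in 15 (60%) and both in 9 (36%). Of the other 41 tested genes of the same lists, 35 had a promoter, with CACGTG in 7 (20%), GCGGGA in 13 (37.1%) and both in 5.71%. Over all tested genes 10409 had a promoter, and the shares were 10.1%, 35% and 3.81%. Over all shared risers with a promoter (589) CACGTG occurred in 13.9% and GCGGGA in 39.4%, and over the shared fallers (613) in 12.4% and 39.3%. The GC box occurred in 69.9% of risers' promoters, 66.6% of fallers' and 62.8% of all. The median ratio of observed to expected CpG was 0.826 in risers, 0.758 in fallers and 0.752 in all. These are descriptions of letters in a window of 300 bases, with no test.

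Meiotic genes rose, in females more than in males. Of 30 tested genes of meiotic entry and prophase I, 23 were higher at E13.5 and none lower by the limma stage term, with a median change of 0.92 in females and 0.40 in males. At an unadjusted p under 0.05 the counts were 25 higher and 0 lower. The interaction passed in 14 of the 30. The shared risers among them numbered 11 (Ythdc2, Sycp1, Sycp3, Tex12, 4930447C04Rik, Smc1b, Hormad1, Hormad2, Spo11, Hfm1 and Tex11), a count that was 4 in the fit of all 30 arrays, 5 without replicate 1 of the E11.5 males, 6 without replicate 2 of the E13.5 males and 7 without replicate 3 of either male group.

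Sycp1, the transverse filament protein of the synaptonemal complex that joins homologous chromosomes, read 5.11, 5.36 and 4.93 in E13.5 females and 3.90, 4.68 and 3.80 in E13.5 males, against 2.42, 2.31 and 2.94 in E11.5 females and 2.36, 3.15 and 2.63 in E11.5 males. Males were between the E13.5 females and the E11.5 arrays with no overlap. The change was 2.57 in females (5.95-fold) and 1.41 in males (2.66-fold), with a stage adjusted p of 1.3e-05. Some E11.5 arrays of Sycp1 lay near or under the 40th percentile (2.32 to 2.43), so the low end of the scale may limit these folds. Smc1b, a meiotic cohesin subunit, read 7.40, 8.12 and 7.59 in E13.5 females and 6.24, 6.39 and 6.45 in E13.5 males, against 5.14 to 5.54 on the 6 E11.5 arrays. Its change of 2.28 in females exceeded that of 1.13 in males (interaction adjusted p = 0.0040, or 0.068 in the fit of all 30 arrays), and both were past the threshold. Tex11, an X-linked meiotic gene, rose by 1.13 in females and 1.17 in males (stage adjusted p = 9.0e-07), and the difference between them was -0.03 ± 0.19 (SE), with a 95% interval of -0.44 to 0.37. The E13.5 arrays of Tex11 read 3.54 to 3.89 and the E11.5 arrays 2.40 to 2.96.

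Other meiotic genes moved in females only by their own contrasts. Stra8, the retinoic acid target required for meiotic entry, read 5.69, 7.21 and 5.62 in E13.5 females and 2.34, 2.22 and 2.15 in E13.5 males, against 1.92 to 2.22 on the E11.5 arrays. The male change was 0.19 (adjusted p = 0.69) and the female change 4.06 (adjusted p = 5.4e-08), with an interaction adjusted p of 3.8e-05. All 6 E11.5 arrays of Stra8 lay under the lowest 40th percentile of the arrays (2.32), so the size of the female change is set by the low end of the scale and is not a measured fold. Meioc, a partner of Ythdc2, changed by 3.49 in females and 0.11 in males (interaction adjusted p = 6.9e-06), and its E11.5 and E13.5 male arrays also lay under that percentile. Ythdc2, an RNA helicase of meiotic entry, rose in both, by 1.80 and 0.76 (adjusted p = 1.1e-06 and 0.0063), although its male call was lost in the fit of all 30 arrays (adjusted p = 0.059). Sycp3, an axial element, rose by 2.27 in females and 0.80 in males, and lost its shared call in 5 of 20 alternatives, 4 of which each left out 1 male array (replicates 1 and 3 of either stage, adjusted p in the weaker sex up to 0.11).

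Of 30 tested pluripotency genes 19 were lower at E13.5 and 1, Otx2, was higher, with a median change of -0.48. In females 21 were lower, with a median of -0.89, and in males 9 were lower and 3 higher, with a median of -0.32. The interaction passed in 14 of the 30, and 8 genes fell in both sexes (5 in the fit of all 30 arrays). Esrrb, an orphan nuclear receptor of naive pluripotency, read 3.99, 3.89 and 4.20 in E13.5 females and 4.48, 4.66 and 4.62 in E13.5 males, against 5.69, 5.67 and 5.34 in E11.5 females and 5.64, 5.81 and 5.70 in E11.5 males. The stages did not overlap, and the change was -1.33 ± 0.11 (adjusted p = 7.4e-07). Tfcp2l1, a transcription factor of the same network, read 4.05 to 4.87 at E13.5 against 5.23 to 6.23 at E11.5 (change -1.26 ± 0.16, adjusted p = 2.9e-05).

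Nanog read 6.56, 6.25 and 6.82 in E13.5 females and 7.60, 7.55 and 7.39 in E13.5 males, against 8.61, 8.79 and 8.50 in E11.5 females and 8.23, 8.18 and 8.24 in E11.5 males. It fell in both sexes, by 2.09 in females and 0.70 in males on the log2 scale (adjusted p = 4.5e-08 and 0.0026), and the female fall was the larger (interaction adjusted p = 0.00043). Fbxo15, an Oct4 target gene, had a stage change of -1.13 ± 0.12 (adjusted p = 7.9e-06), Gdf3 one of -1.05 (adjusted p = 0.00013) and Nr0b1 one of -0.91 (adjusted p = 0.00014). Pou5f1, whose element drives the sorting reporter, read 9.0, 8.72 and 9.06 in E13.5 females and 9.34, 9.33 and 9.34 in E13.5 males, against 9.19 to 9.71 on the E11.5 arrays. The stages overlapped, and its change of -0.33 ± 0.10 (adjusted p = 0.020) missed the threshold without replicate 1 of the E11.5 females (0.051) and without replicate 2 of the E13.5 females (0.053). Sox2 changed by -0.51 ± 0.11 (adjusted p = 0.0024), with -0.68 in females and -0.34 in males, and the male change did not pass (adjusted p = 0.11).

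The list of early primordial germ cell genes had 11 of 19 members lower and 4 higher at E13.5, with a median change of -0.51. The shared fallers were Tfap2c, Kit, Ifitm3, Cbx7, Rhox6, Cxcr4 and Itgb3, and their number fell to 4 in the fit of all 30 arrays and without replicate 1 of the E13.5 males. Cxcr4, the receptor of the chemokine that guides migrating germ cells, read 6.61 to 7.09 at E13.5 against 7.38 to 7.72 at E11.5 (change -0.64 ± 0.10, adjusted p = 0.00013), with no overlap. Ifitm3, an interferon-induced membrane protein known from early germ cells, read 8.93 to 10.08 against 10.39 to 11.18 (change -1.07 ± 0.18, adjusted p = 0.00030), and its male call was lost without replicate 1 or without replicate 2 of the E13.5 males (adjusted p up to 0.066). Tfap2c, a germ cell specification factor, changed by -0.58 in females and -1.07 in males, and its female call was lost without replicate 1 of the E11.5 females or without replicate 2 of the E13.5 females (adjusted p up to 0.076).

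Kit, the receptor tyrosine kinase for stem cell factor, read 7.33, 7.31 and 7.22 in E13.5 females and 6.92, 6.67 and 6.92 in E13.5 males, against 7.72, 7.70 and 7.48 in E11.5 females and 7.98, 7.65 and 7.65 in E11.5 males. All E13.5 arrays lay below all E11.5 arrays, with a stage change of -0.64 ± 0.12 (adjusted p = 0.00071). The female change of -0.35 barely passed (adjusted p = 0.046), and the shared call was lost in 11 of 20 alternatives, including the omission of any 1 of 9 arrays (all except replicate 1 of the E11.5 males, replicate 3 of the E11.5 females and replicate 2 of the E13.5 males, adjusted p in the weaker sex up to 0.13). Other early genes did not move together. Dppa3 read 8.40, 8.23 and 8.51 in E13.5 females and 9.48, 9.65 and 9.39 in E13.5 males, against 8.25 to 8.67 on the E11.5 arrays, and the interaction passed (adjusted p = 0.0017). Prdm1 and Nanos3, both required for early germ cells, changed by -0.58 and -1.60 in females and by 0.06 and -0.07 in males.

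The adhesion and migration list had 9 of 20 genes lower and 4 higher, with a median change of -0.16. Vinculin (Vcl), a focal adhesion protein, changed by -0.70 in females and -0.72 in males (stage adjusted p = 0.00017), and its E13.5 arrays (3.61 to 4.16) lay below its E11.5 arrays (4.20 to 4.70). The E-cadherin gene Cdh1 had a stage change of -0.15 (adjusted p = 0.52).

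Pfkp, the platelet form of phosphofructokinase, had the smallest adjusted p of the named fallers. It read 4.33, 3.90 and 4.06 in E13.5 females and 4.0, 4.06 and 3.96 in E13.5 males, against 7.07, 7.19 and 6.46 in E11.5 females and 6.90, 7.01 and 7.13 in E11.5 males. The 6 arrays of each stage formed a tight group. The change was -2.91 ± 0.12 (adjusted p = 2.0e-09), 7.02-fold lower in females and 8.05-fold lower in males. Of 19 tested glycolysis genes 9 were lower and 2 higher (Aldoc and Pdk3), with a median of -0.21. In females 11 were lower, with a median change of -0.68 over the list, and in males 4 were lower, with a median of -0.05, so the 4 shared fallers (Pfkp, Slc2a3, Pfkl and Pkm) were all that passed in males. Pkm lost that shared call in 6 of 20 alternatives, 5 of which left out 1 male array (replicates 1 and 2 of the E11.5 males and each E13.5 male, adjusted p up to 0.12). Slc2a1, another glucose transporter, changed by -1.83 in females and 0.10 in males (interaction adjusted p = 5.8e-05). The glucose transporter Slc2a3 read 4.75 to 5.26 at E13.5 against 5.93 to 6.64 at E11.5 (change -1.32 ± 0.13, adjusted p = 4.5e-06), and Pfkl, the liver phosphofructokinase, changed by -0.80 ± 0.13 (adjusted p = 0.00030). The muscle form Pfkm had a change of 0.02 (adjusted p = 0.91).

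Of 50 nuclear genes of oxidative phosphorylation 17 were higher and 5 lower by the stage term, with a median of 0.14. In females 19 were higher and 6 lower, and in males 5 were higher and 2 lower. The shared genes numbered 5 higher and 2 lower. The complex I subunit Ndufs1 read 6.43 to 6.70 at E13.5 against 5.63 to 5.87 at E11.5 (change 0.77 ± 0.08, adjusted p = 8.5e-06), and the complex II subunit Sdhb 8.26 to 8.60 against 7.40 to 7.71 (change 0.81 ± 0.09, adjusted p = 1.2e-05). Atp5d, a subunit of the ATP synthase, fell by 0.85 ± 0.09 on the log2 scale (adjusted p = 6.6e-06), so the complex did not move as one. Of 19 cholesterol synthesis genes 10 were higher and 3 lower, with a median of 0.36. Insig1, a sterol sensor, rose by 0.90 ± 0.09 (adjusted p = 6.9e-06) and Fdps, an enzyme of isoprenoid synthesis, by 0.87 ± 0.11 (adjusted p = 4.3e-05), while Ebp, a sterol isomerase, changed by -0.92 ± 0.11 (adjusted p = 1.4e-05) and its stages overlapped across the sexes.

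**Figure D4:**
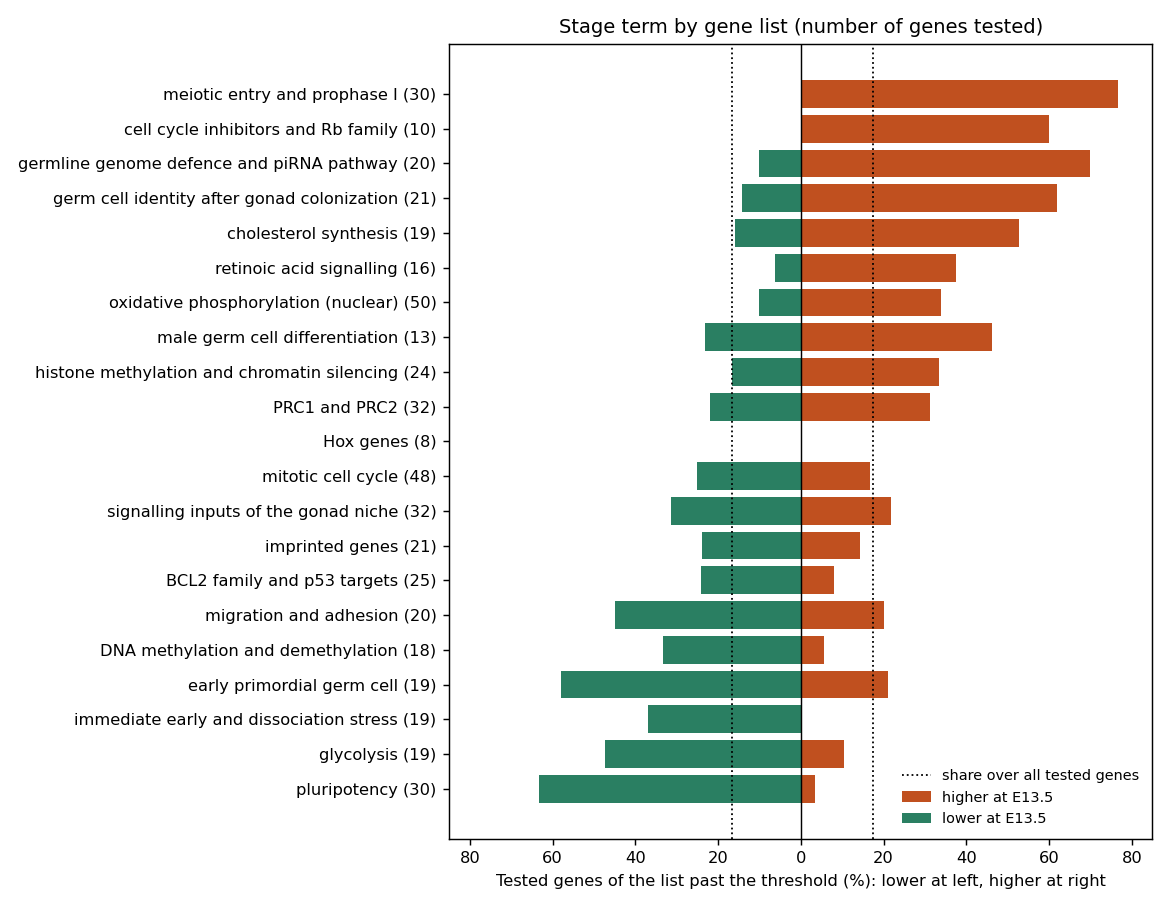
Share of the tested genes of each of 21 lists (number tested in brackets) that the stage term called higher at E13.5 (orange, right) or lower (green, left), in percent. Dotted lines mark the shares over all 13065 genes, 17.4% higher and 16.6% lower. The meiotic list (23 of 30 higher) and the pluripotency list (19 of 30 lower) lie at opposite ends, and the Hox genes have no call among 8 tested.

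Cell cycle genes did not move as a block. Of 48 mitotic genes 12 were lower and 8 higher, where the shares over all tested genes were 16.6% lower and 17.4% higher. Only the count of higher genes was near its share. The proliferation markers Mki67 and Top2a had stage changes of -0.15 and -0.08 (adjusted p = 0.41 and 0.66). Some regulators of the start of S phase moved in both sexes. Cdk2 read 4.60, 5.12 and 4.88 in E13.5 females and 5.78, 5.63 and 5.77 in E13.5 males, against 4.05, 4.01 and 3.49 in E11.5 females and 4.04, 4.14 and 4.05 in E11.5 males (change 1.34 ± 0.14, adjusted p = 6.9e-06), without overlap. Cyclin D3 (Ccnd3) fell by 1.09 ± 0.09 on the log2 scale (adjusted p = 7.7e-07), with 4.87 to 5.24 at E13.5 against 6.12 to 6.29 at E11.5. Cyclin D1 (Ccnd1) differed between the sexes, with a change of 2.35 in females and 0.49 in males (interaction adjusted p = 0.00011).

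Of 10 cell cycle inhibitors and Rb family genes tested, 6 were higher and none was lower by the limma stage term, with a median of 0.31, and at an unadjusted p under 0.05 the counts were 6 and 1. Without replicate 2 of the E11.5 females, and without replicate 3 of the E13.5 males, 1 of them was lower. Rb1, the retinoblastoma gene, read 3.97, 4.28 and 4.21 in E13.5 females and 4.37, 4.19 and 4.25 in E13.5 males, against 3.01, 3.44 and 3.46 in E11.5 females and 3.07, 3.07 and 3.59 in E11.5 males. Its change was 0.85 in females and 1.03 in males (stage adjusted p = 3.1e-05), and no array overlapped. Cdkn1b, the inhibitor p27, moved in opposite directions, with a change of -1.79 in females and 0.70 in males (adjusted p = 1.3e-05 and 0.037, interaction adjusted p = 0.00014), and 2 members of the list were lower in females. The inhibitors Cdkn1c and Cdkn2d changed by 1.22 and 1.37 in females and by 0.41 and 0.32 in males, where neither passed (adjusted p = 0.053 and 0.31), although Cdkn1c passed in both sexes under 7 of 20 alternatives.

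Chromatin genes moved in both directions. Uhrf1, the cofactor that brings the maintenance DNA methyltransferase to replicating DNA, read 3.82, 4.70 and 4.09 in E13.5 females and 4.28, 4.95 and 4.35 in E13.5 males, against 3.05, 3.35 and 2.26 in E11.5 females and 3.08, 2.78 and 2.97 in E11.5 males. All E13.5 arrays were higher, by 1.45 ± 0.19 (adjusted p = 4.0e-05). Dnmt1, that methyltransferase, had a change of -0.21 ± 0.11 (adjusted p = 0.14) and Tet1 one of -0.28 ± 0.12 (adjusted p = 0.077). Of 18 genes of DNA methylation and demethylation 6 were lower and Uhrf1 was the 1 that was higher, against 16.6% and 17.4% of all tested genes. Ung, a uracil glycosylase of base excision repair, fell by 0.86 ± 0.08 on the log2 scale (adjusted p = 2.7e-06), with 5.50 to 5.83 at E13.5 against 6.33 to 6.72 at E11.5.

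Of 32 genes of Polycomb repressive complexes 1 and 2, 10 were higher and 7 lower, with a median change of -0.03. Over all tested genes the shares were 17.4% higher and 16.6% lower. Of the 32 genes 8 were shared risers and 2 shared fallers, against 5.55% and 6.05% of all tested genes. Rnf2, the ubiquitin ligase of complex 1 that the series deletes in its other arrays, read 5.47, 5.65 and 5.38 in E13.5 females and 5.79, 5.51 and 5.63 in E13.5 males, against 4.56, 4.61 and 4.46 in E11.5 females and 4.79, 4.13 and 4.70 in E11.5 males. It rose by 1.03 ± 0.11 (adjusted p = 1.1e-05). Its partner Ring1 had a change of 0.02 (adjusted p = 0.88). Kdm2b, which brings a variant of complex 1 to CpG islands, rose by 1.04 ± 0.10 (adjusted p = 5.2e-06), and Rbbp7, a histone chaperone, by 0.99 ± 0.10 (adjusted p = 3.8e-06). Jarid2, a cofactor of complex 2, fell by 0.81 ± 0.10 on the log2 scale (adjusted p = 2.7e-05). The catalytic subunit Ezh2 had a change of 0.16 (adjusted p = 0.25).

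Among 24 genes of histone methylation and chromatin silencing 8 were higher and 4 lower, against 17.4% and 16.6% of all tested genes. The shared risers numbered 6 and the shared fallers 1, against 5.55% and 6.05% of all tested genes. Hells, a chromatin remodeller needed for DNA methylation, read 8.17, 8.26 and 8.20 in E13.5 females and 7.77, 7.86 and 7.90 in E13.5 males, against 6.58 to 6.86 in E11.5 females and 6.64 to 7.03 in E11.5 males (change 1.26 ± 0.11, adjusted p = 1.2e-06). The stages were clearly separated. The histone H3 lysine 9 methyltransferases Setdb1 and Suv39h2 rose by 0.47 ± 0.08 and 0.59 ± 0.10 (adjusted p = 0.00025 and 0.00039).

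Receptors and targets of niche signals moved in both directions, as did the genes tested as a whole. Of 32 genes 10 were lower and 7 higher, where the shares over all tested genes were 16.6% lower and 17.4% higher. Igf1r, the receptor of insulin-like growth factors, rose by 1.46 ± 0.15 (adjusted p = 5.1e-06), with 4.09 to 4.82 at E13.5 against 2.67 to 3.36 at E11.5. Among the members that fell were the signalling inhibitors Spry2, by 0.98 ± 0.11 on the log2 scale (adjusted p = 1.7e-05), Spry4 by 0.66 (adjusted p = 0.00061) and Dusp6 by 1.23 (adjusted p = 8.1e-05). The fibroblast growth factor receptors did not move as one: Fgfr1 fell by 0.54 on the log2 scale (adjusted p = 0.00011), Fgfr3 had a change of 0.72 (adjusted p = 0.021) and Fgfr2 one of -0.35 (adjusted p = 0.13). The Wnt effector Lef1 fell by 0.87 ± 0.10 (adjusted p = 1.4e-05) and the activin receptor Acvr2b by 0.59 ± 0.08 (adjusted p = 6.5e-05). Of 16 retinoic acid genes 6 were higher and 1 lower, and Rdh10, an enzyme of retinoic acid synthesis, changed by 1.34 in females and 0.23 in males (interaction adjusted p = 0.0017).

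The 13 genes of male germ cell differentiation had 6 higher and 3 lower by the stage term. The sexes differed, with 3 higher and 6 lower in females and 7 higher in males, and the interaction passed in 9 of the 13. Bnc2, a zinc finger gene of germ cells, read 3.75, 4.42 and 3.88 in E13.5 females and 6.23, 6.93 and 6.61 in E13.5 males, against 2.53 to 3.06 in E11.5 females and 2.86 to 3.22 in E11.5 males. It rose in both sexes and more in males (changes 1.28 and 3.50, interaction adjusted p = 0.00017). Nanos2, the male-fate RNA-binding protein, changed by -0.12 in females and 2.52 in males, and its stage term (adjusted p = 0.028) missed the threshold in 5 of 20 alternatives (adjusted p up to 0.067). Of 21 imprinted genes 5 were lower and 3 higher, and the amino acid transporter Slc38a4 fell in both, by 1.21 in females and 2.51 in males on the log2 scale. Of 25 BCL2 family genes and p53 targets 6 were lower and 2 higher. For these lists the shares to compare, over all tested genes, were 16.6% lower and 17.4% higher.

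None of 8 tested Hox genes, which set position along the body axis, passed in the limma stage term, and 0 of them had an unadjusted p under 0.05. Without replicate 2 of the E11.5 males 1 of them was higher. Hoxc6 had a change of -0.17 ± 0.12 (adjusted p = 0.29). Of 19 immediate early and dissociation genes, known to respond to cell handling, 7 were lower at E13.5 and none was higher by the limma stage term, with a median of -0.26, and at an unadjusted p under 0.05 the counts were 9 and 0. The count of 7 was 3 without replicate 3 of the E13.5 females, and 4 without replicate 1 of the E11.5 males, replicate 2 of the E11.5 females or replicate 2 of the E13.5 females. Ier2 read 2.89 to 3.21 at E13.5 against 3.41 to 4.25 at E11.5 (change -0.79 ± 0.12, adjusted p = 0.00012). The part of cell handling in other genes that were lower at E13.5 was not tested.

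Outside the lists, several genes fell by a wide margin in both sexes. Those named were ranked among genes whose stages did not overlap. Hmgn5, an X-linked nucleosome-binding protein, read 2.49, 1.69 and 2.05 in E13.5 females and 2.54, 2.01 and 2.95 in E13.5 males, against 5.83, 5.78 and 4.43 in E11.5 females and 6.31, 5.38 and 5.39 in E11.5 males. Some of its E13.5 arrays lay under the 40th percentile, so its fall of 9.65-fold in females and 9.15-fold in males is limited by the low end of the scale (stage change -3.23 ± 0.25, adjusted p = 5.3e-07). Amt, the aminomethyltransferase of the glycine cleavage system, read 5.15 to 5.53 at E13.5 against 7.0 to 7.54 at E11.5 (change -2.02 ± 0.12, adjusted p = 6.2e-08). Dpysl2, a microtubule-binding protein, fell by 1.94 ± 0.12 on the log2 scale (adjusted p = 7.7e-08), and the metallothionein Mt2 by 1.71 ± 0.20 (adjusted p = 1.8e-05).

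The long non-coding RNA Lncenc1, known from naive embryonic stem cells, fell by 3.33 in females and 1.53 in males on the log2 scale, and the falls differed (interaction adjusted p = 0.00040). The LIM protein gene Csrp2 fell in both sexes too, by 2.86 and 1.86. Nectin2, a cell adhesion molecule, fell by 1.58 ± 0.13 (adjusted p = 1.2e-06), with 2.71 to 3.59 at E13.5 against 4.42 to 4.99 at E11.5.

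Of 4 tested small nuclear RNA genes 2 were higher and 1 lower, and of 48 small nucleolar RNA genes 4 were higher and 18 lower. Rny1, a Y RNA, read 8.11, 8.36 and 8.53 in E13.5 females and 8.45, 8.61 and 8.53 in E13.5 males, against 5.72, 6.32 and 5.05 in E11.5 females and 5.68, 5.67 and 5.95 in E11.5 males (change 2.70 ± 0.16, adjusted p = 7.7e-08). On the E12.5 female arrays it read 9.97 to 10.45, above all E13.5 arrays. Rnu12, a spliceosomal RNA, rose by 1.88 ± 0.13 (adjusted p = 1.9e-07), and Rnu3a, a U3 RNA gene of a multi-copy family whose copies the probe set may not tell apart, by 2.56 ± 0.17 (adjusted p = 1.5e-07). How the amplification recovers such short RNAs in each sample was not tested. Among protein genes outside the lists, Scml2, an X-linked Polycomb-related germline gene, rose by 1.86 ± 0.14 (adjusted p = 5.3e-07), and Pip4k2a, a phosphoinositide kinase, by 1.71 ± 0.11 (adjusted p = 1.4e-07).

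The E12.5 control arrays give a stage between for the shared genes, as a description with no test. In males the 725 shared risers had covered a median of 54.3% of the distance from their E11.5 to their E13.5 mean by E12.5 (quartiles 33.3% and 77.2%). In females the median was 27.5% (quartiles 4.12% and 53.3%), and 168 of the risers were below their E11.5 mean at E12.5. The shared fallers had covered a median of 64.3% in males and 72.8% in females. Ddx4 read 7.61, 8.12 and 7.42 in E12.5 females and 7.59, 7.44 and 7.54 in E12.5 males, most of the way to its E13.5 level. Uhrf1 read 2.77, 3.14 and 2.71 in E12.5 females, at its E11.5 level, and 3.12, 3.62 and 3.41 in E12.5 males. Kit read 7.70 to 7.82 in E12.5 males, within the range of the E11.5 males. The E12.5 female arrays spread widely for several genes (Pfkp read 4.16, 5.72 and 6.14), and for Rny1 they lay above all E13.5 arrays. Whether the low female share of the risers reflects timing or these arrays was not tested.

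**Figure D5:**
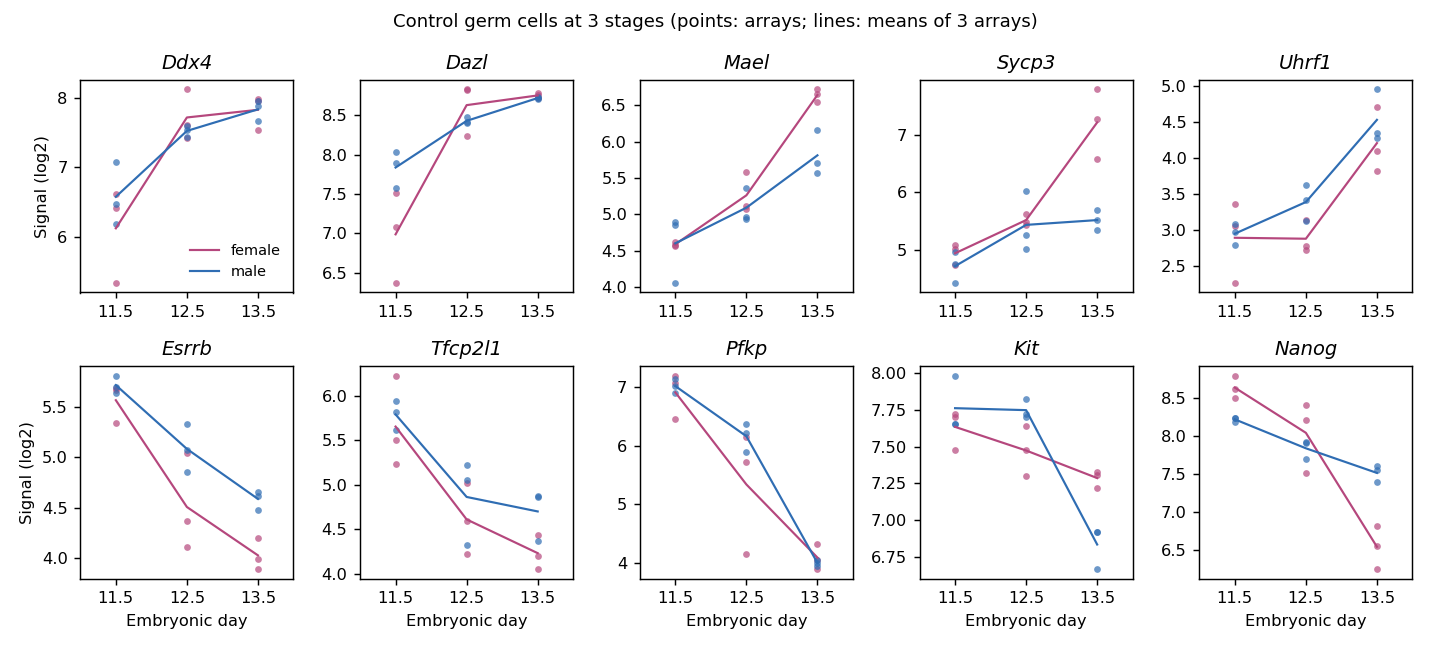
Log2 signal (y axis, a separate scale per panel) of 10 genes in control germ cells at E11.5, E12.5 and E13.5 (x axis, embryonic day). Points are arrays, lines join the means of 3 arrays, females in magenta and males in blue. Ddx4 and Dazl reached most of their E13.5 level at E12.5, Uhrf1 in females rose after E12.5, and Sycp3 and Nanog parted between the sexes at E13.5.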

How the data were processed

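Gene expression was measured in sorted mouse germ cells on Affymetrix arrays, 1 per sample. The values are log2 signals per probe set, as the authors deposited them; per the submitters' processing notes their software was affy 1.36 with R 2.15, and how probes were summarised and background-corrected was not given in the sources used here. The log2 scale was inferred from the values (array medians 2.53 to 2.63 on the 12 arrays compared). The number of arrays limits the precision, and no batch is given in the labels used here, so none was tested.

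Of 34760 probe sets, 21640 had 1 gene symbol, 1321 had several and 11799 had none listed. Symbols were updated through Entrez identifiers (21553 matched, 87 kept). For each of 19937 genes the probe set with the highest mean was kept (954 genes had several). Genes above the array's 40th percentile on at least 3 of 12 arrays were tested (13065, with 6872 removed). limma 3.58.1 in R 4.3.3 (lmFit and eBayes) fitted stage plus sex, with 9 residual degrees of freedom, and a fit of 4 groups, with 8, for the female and male contrasts and the interaction. P-values were adjusted by Benjamini-Hochberg over all genes tested, with a threshold of 0.05. A probe set's level is not compared with another's.

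The comparison and the gene lists were chosen with earlier results of these data known. Named genes were shared genes with separated stages ranked by the smaller of the female and the male change, the leading members of each list (shared genes first, then by p), a fixed set of germ cell genes, and those with the smallest interaction p. For genes named by that ranking, stages without overlap were a condition and not a result. Tuba3a, Sohlh2, Tdrd12, Morc1, Hormad1, Tex12, Otx2, Gdf3, Nr0b1, Cdh1, Aldoc, Pdk3, Pfkm, Mki67, Top2a, Ring1, Ezh2, Spry4, Dusp6, Fgfr1, Fgfr2, Fgfr3, Slc2a1, Cdkn1b, Taf7l, Brdt, Amh and other list members named beyond that were chosen after their values were seen, as were the promoters printed and the split of their lists. Same-numbered replicates were checked for pairing: the correlation of their deviations ranged from -0.108 to 0.115 over 18 pairs and exceeded 0.1 in 1, so the numbers were not used as pairs. The fit was tested on simulated data. Alternatives were a replicate block, quantile normalization, filters, array weights, a mean-variance trend, the mean of a gene's probe sets, all 30 arrays, the arrays of 1 sex, a minimum change of 1, and each array left out. The arrays of 1 sex and the minimum change of 1 gave counts of genes only. The other 20 are the alternatives counted for single genes. Probe sets with no symbol listed were tested apart and are given as counts only. Those with several symbols were not tested.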

Additional observations from a re-analysis of the deposited data

Results flagged for a closer look

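In 5 named genes 1 of the 6 arrays of a stage lay far from the others, a pattern that chance gives in about 1 in 20 groups. The highest E11.5 array read 3.92 for Tuba3b and 3.11 for Csf1r. The lowest E11.5 array read 4.88 for Folr1, 5.34 for Esrrb and 3.49 for Cdk2.

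In 38 named genes the female and the male stage change differed by the limma interaction test (adjusted p under 0.05). The values that follow are female minus male changes. Among meiotic genes they were 3.86 for Stra8, 3.38 for Meioc, 1.47 for Sycp3, 1.16 for Sycp1, 1.15 for Smc1b and 1.03 for Ythdc2. Among germ cell and early germ cell genes they were 0.88 for Stk31, 0.86 for Tdrd7, -1.12 for Dppa3, -1.53 for Nanos3, -0.64 for Prdm1, 2.01 for Rhox9 and 2.02 for Rhox6, and the last 2 genes are near copies whose probe sets may read each other. Among pluripotency genes the difference was -3.55 for Tdgf1, -1.39 for Nanog and -0.59 for Fbxo15, and it was -1.79 for the non-coding RNA Lncenc1.

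Among genes of male differentiation it was -2.64 for Nanos2 and -2.23 for Bnc2. Cell cycle genes gave 1.86 for Ccnd1, 1.04 for Cdkn2d and 0.81 for Cdkn1c, and retinoic acid genes 1.48 for Crabp2 and 1.11 for Rdh10. Chromatin genes gave 0.92 for Gadd45b, -0.61 for Tet1 and -0.77 for Xist. The difference was 1.30 for Slc38a4, 0.71 for Nsdhl, -0.88 for Ier3 and -1.0 for Csrp2. Of the supporting cell markers, Bmp2 gave 0.92 and Cst9 -1.63. The genes with the smallest interaction p outside the lists were Ptprj (2.70), E330020D12Rik (-3.01), Trank1 (2.03), Lrrc34 (2.56) and Slc38a2 (-1.98).

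Some of these differences missed the threshold under alternatives: Fbxo15 in 16 of 20 (adjusted p up to 0.28), Nsdhl in 14 (up to 0.34), Sycp1, Ier3 and Prdm1 in 9 each (up to 0.092, 0.077 and 0.092), Gadd45b in 8 (up to 0.22), Csrp2 and Tet1 in 7 each (up to 0.094 and 0.13), and Cdkn2d and Xist in 4 each (up to 0.075 and 0.11).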

How the results depend on the processing

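For the named genes, no stage change and no interaction that passed reversed in sign under the alternatives compared gene by gene. Medians of some lists did change sign. The median of the Polycomb list, -0.03, ranged from -0.04 to 0.01, and that of the male differentiation list, 0.26, from -0.19 to 0.32. In the fit of all 30 arrays the shared genes numbered 1005 and the interaction genes 842. With a change of at least 1 required, the counts were 413 for the stage term, 924 in females, 335 in males, 484 for the interaction and 148 shared. Leaving out 1 array at a time gave 3839 to 4306 genes for the stage term, 3827 to 4702 in females, 1761 to 2583 in males, 1149 to 1511 shared and 1007 to 1379 for the interaction. The cause of these shifts was not tested. With the replicate number as a block, the stage term called 4166 genes and 1465 were shared, against 4645 in females, 2389 in males and 1373 for the interaction, and the numbers do not pair the samples. Of 127 named genes called for stage, 118 kept the call under each of the 20 alternatives compared gene by gene. Of 101 named shared genes 76 stayed shared under them. Those 20 do not include the fits of 1 sex or the minimum change of 1. Over all genes, 651 shared genes (305 risers and 346 fallers) were shared under all 20 alternatives. Low signals limit small changes near the 40th percentile, where rises and falls are both compressed.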

Other observations

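The X chromosome had the highest share of shared risers among the chromosomes, with 45 of 402 tested genes (11.2%) against 3.71% to 8.73% on the autosomes, while its share of shared fallers was 6.22%. The median change of X-linked genes was 0.165 in females and 0.026 in males. The interaction called a larger female change in 59 X-linked genes (14.7%), against 4.24% to 7.59% on the autosomes. These shares are descriptions with no test.

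Of 48 tested small nucleolar RNA genes 18 were lower at E13.5 and 4 higher, and of 116 microRNA genes 28 were lower and 5 higher. Of 325 long non-coding RNA genes 42 were lower and 19 higher. Among 12415 protein-coding genes 2056 were lower and 2230 higher. Of 6803 tested probe sets with no gene symbol listed, tested apart, 344 were higher and 578 lower (13.6% in either direction).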
